A study of Mus musculus with 9 samples.

Results

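Glutathione (GSH) was added to murine Tc17 cultures together with dimethyl fumarate (DMF), and the comparison described here asks which transcripts still differed from solvent-treated cultures when both were present. Its members are 6 of the 9 RNA-Seq libraries, 3 labelled DMF + GSH and 3 labelled Ctrl, and it was read across 11599 of 41388 genes, those whose normalized counts averaged 10 or more over the 9 libraries. In all groups naive CD8+ T cells from lymph node and spleen of C57BL/6 mice were activated through CD3 and CD28 with IL-2 at 50 U/ml, TGF-β, IL-6 and an antibody to IFN-γ, and RNA was taken after 2 days. The labels give 0.2% DMSO as the solvent, alone in Ctrl cultures, with 20 µM DMF added in DMF cultures, and with 20 µM DMF and 50 µM GSH in DMF + GSH cultures. There was no group with GSH alone, so an effect of GSH itself and a remainder of the DMF effect cannot be told apart in these libraries.

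Tc17 cells are CD8+ T cells that make IL-17 and carry little of the cytotoxic program of conventional CD8+ T cells. DMF is an electrophile that reacts with thiol groups, and GSH, the main small thiol of the cell, is one of its targets. Cells answer thiol loss with antioxidant genes under NRF2 and with the amino acid response under ATF4, whereas FOXO1 and its target genes keep T cells in a naive or memory-like state.

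Depth ranged from 7671772 reads in Ctrl replicate 3 to 14511926 in DMF + GSH replicate 2. The 9 CD8 T cell markers were high everywhere, with a summed normalized count of 28746 to 37850, and 5 of 8 erythroid or platelet markers were at 0 in all libraries. Of the 4 markers listed for CD4 T cells, Cd4 and Cd40lg stayed at or below 5.83, whereas Zbtb7b was 37.4 to 86.5 and Foxp3 463 to 2456. Ctrl replicate 3 stood apart by myeloid transcripts: Lyz2 was 119 there and at most 10.6 elsewhere, and the summed myeloid markers were 323 against 59.2 to 93.5. The summed dendritic cell markers, led by Xcr1 and H2-Ab1, were 97.7 to 136 in Ctrl, 31.7 to 38.5 with DMF and 58.3 to 117 with both agents, with Clec9a at most 1.10. The stromal or endothelial markers, nearly all of it Pecam1, summed to 296 to 765, 152 to 253 and 286 to 618, with Cdh5 at most 5.20. The part of these transcripts in the results was not tested, and counts without Ctrl replicate 3 are given below. Replicate 1 came from preparation batch 1 and replicates 2 and 3 from batch 2. The replicate 1 libraries of all groups carried Y-linked Ddx3y (1057 to 1233) with Xist at 2.20 to 5.20, whereas in replicates 2 and 3 Xist was 12006 to 18100 and Ddx3y at most 1.42. Libraries were compared within a replicate number, and the labels do not say whether the numbers stand for separate animals, so p-values measure only the spread between these samples.

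The DMF + GSH libraries lay close to their solvent partners. The median absolute log2 difference over all genes tested was 0.126 in replicate 1, 0.0978 in replicate 2 and 0.116 in replicate 3. Between DMF and Ctrl of the same number it was 0.292, 0.251 and 0.234, and between DMF + GSH and DMF it was 0.293, 0.223 and 0.203. Libraries of one group but of different number were 0.125 to 0.208 apart, so that a DMF + GSH library lay about as near to its Ctrl partner as the nearest libraries of one group lay to each other. With 3 pairs a two-sided exact test cannot go below a p of 0.25, so these distances are given as values only. In bulk RNA, fewer cells of a type and less RNA per cell cannot be told apart, here and in all results that follow.

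**Figure D1:**
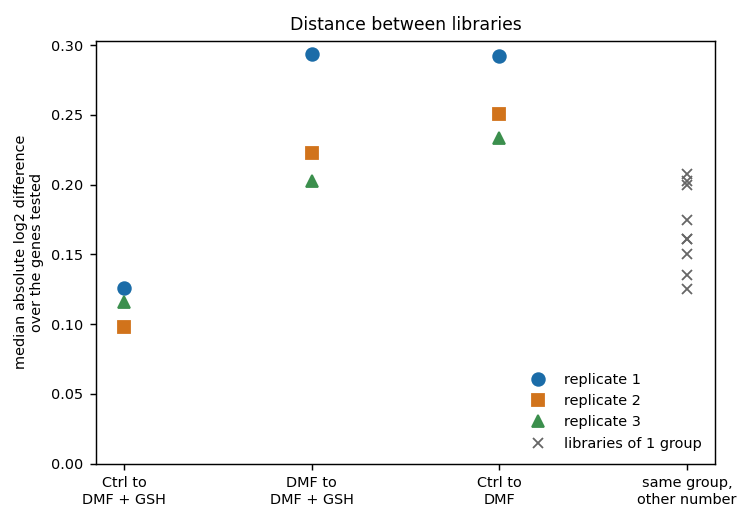
Median absolute difference of log2(normalized count + 1) over 11599 genes (y axis) between libraries of the same replicate number, and between libraries of one group with different numbers (crosses). The Ctrl to DMF + GSH distances, 0.0978 to 0.126, lie below all Ctrl to DMF distances, 0.234 to 0.292.

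Few genes were called. At the threshold of an adjusted p under 0.01 together with a log2 fold change of 0.75 or more in either direction, 1 gene, Serpinb1a, was called (0.00862% of those tested). At an adjusted p under 0.1, 12 genes (0.103%) differed, 3 of them higher and 9 lower with DMF + GSH. At an unadjusted p under 0.05, 245 genes (2.11%) were higher and 354 (3.05%) lower. DMF alone moved 789 genes (6.80%) past the stricter threshold against Ctrl, 293 up and 496 down. All 12 genes had the same direction in the 3 replicate pairs, beside 14.2% of all genes tested lower and 11.7% higher in all pairs. A choice by p in a fit paired by replicate number favours such agreement, so it is a description only. The calls rest on the pairing by replicate number: with the preparation batch in place of the number limma called 0 genes at either threshold (222 at an unadjusted p under 0.05), and DESeq2 also called 0 (100 at an unadjusted p under 0.05). The number of genes at an adjusted p under 0.1 was 0 when Ctrl replicate 1 was left out, 3 when replicate 2 was and 12 when replicate 3 was, and 7 of the last were among the 12 above. For the DMF libraries it was 23, 27 and 12 in the same order, and for the DMF + GSH libraries 22, 1 and 6. At an adjusted p under 0.1 Serpinb1a was among the called genes whichever library was left out, except Ctrl replicate 1. At the stricter threshold it was called when a DMF library or DMF + GSH replicate 1 was left out. It was not called there without any of the other libraries, or without a whole replicate number.

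A gene that misses these thresholds is not thereby back at the solvent level, and the 95% intervals of the log2 fold changes show how large a difference the data allow. For 10149 of the 11599 genes (87.5%) the whole interval lay between -0.75 and 0.75. Among the 8743 genes averaging 100 or more, this held for 8709 (99.6%). Of the 789 genes moved by DMF, 574 (72.8%) had such an interval, 215 had one that reached beyond, and 4 had one wholly beyond. The 496 genes that fell with DMF had a median log2 fold change of -1.09 with DMF and of -0.16 with DMF + GSH, and the interval for DMF + GSH excluded 0 on the lower side for 102 of them and on the higher side for 2. The 293 genes that rose with DMF had medians of 0.97 and 0.09, and the interval excluded 0 on the higher side for 32 and on the lower side for 7. Both comparisons use the same Ctrl libraries, so nothing is read from the shared direction.

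Among the 12 genes, 7 had also moved with DMF in the same direction and lay between Ctrl and DMF. Serpinb1a, an intracellular inhibitor of serine proteases (GRCm38, chr13:32842092-32851185, minus strand), had normalized counts of 1024, 1229 and 653 in Ctrl replicates 1 to 3, of 79.3, 128 and 71.6 with DMF, and of 556, 800 and 377 with DMF + GSH. The group ranges of Ctrl and DMF + GSH overlapped, but in each pair the DMF + GSH library was the lower one, with log2 differences of -0.88, -0.62 and -0.79. The mean was 968 ± 292 in Ctrl and 578 ± 212 with DMF + GSH (SD, n = 3), or 59.7% of Ctrl against 9.62% with DMF alone. The log2 fold change was -0.76 (SE 0.0982, adjusted p = 0.00364), beside -3.36 for DMF.

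Il1r1, the signalling receptor for IL-1 (chr1:40225080-40317257, plus strand), showed the same order. Its normalized counts were 531, 792 and 623 in Ctrl, 49.7, 129 and 119 with DMF, and 262, 524 and 415 with both agents. Here the groups did not overlap, since the highest DMF + GSH value lay just under the lowest Ctrl value. The log2 fold change of DMF + GSH against Ctrl was -0.73 (SE 0.134, adjusted p = 0.0617), beside -2.79 for DMF.

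Dgat1, which catalyses the last step of triglyceride synthesis (chr15:76502015-76511953, minus strand), had 1050, 1257 and 839 in Ctrl, 329, 484 and 355 with DMF, and 733, 944 and 685 with both agents. The log2 fold change was -0.41 (adjusted p = 0.0697), beside -1.43 for DMF. Trib2, a pseudokinase of the Tribbles family (chr12:15791727-15816922, minus strand), had 2085, 2178 and 1381 in Ctrl, 1044, 1094 and 681 with DMF, and 1611, 1581 and 1080 with both agents. For both genes every DMF + GSH library lay below its Ctrl partner and above its DMF partner. The log2 fold change of Trib2 was -0.40 (adjusted p = 0.00791), beside a 95% interval of -1.12 to -0.88 for DMF.

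Bcl3, a nuclear member of the IκB family (chr7:19808462-19822770, minus strand), had 1211, 1412 and 1158 in Ctrl, 707, 879 and 655 with DMF, and 1004, 1210 and 845 with both agents. The log2 fold change was -0.32 (adjusted p = 0.0937), beside -0.76 for DMF. Pltp, a phospholipid transfer protein (chr2:164839518-164857711, minus strand), had 470, 462 and 330 in Ctrl, 253, 266 and 205 with DMF, and 312, 338 and 244 with both agents. Its log2 fold change was -0.49 (adjusted p = 0.0566), beside -0.79 for DMF, so that for Pltp the difference from Ctrl exceeded the difference from DMF (0.30, adjusted p = 0.0105). Rgs1, which dampens signals of chemokine receptors (chr1:144242296-144249242, minus strand), was the one gene of this kind that was higher. It had 1543, 1161 and 1517 in Ctrl, 2397, 1560 and 2327 with DMF, and 2243, 1382 and 1887 with both agents, with the DMF + GSH value between its partners in every pair. This gave a log2 fold change of 0.37 (adjusted p = 0.0374), beside 0.56 for DMF.

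A pair of genes had moved with DMF and did not differ detectably between DMF + GSH and DMF. Fut7, a fucosyltransferase that builds selectin ligands (chr2:25423267-25426374, plus strand), had 310, 310 and 361 in Ctrl, 159, 238 and 250 with DMF, and 205, 223 and 241 with both agents. All DMF + GSH values lay below all Ctrl values, and the log2 fold change was -0.55 (adjusted p = 0.0937), beside -0.62 for DMF. DMF + GSH and DMF differed by 0.07 (95% interval -0.16 to 0.31, adjusted p = 0.635). Neurl3, a ubiquitin ligase (chr1:36264597-36274679, minus strand), had 1899, 1646 and 1294 in Ctrl, 1500, 1242 and 1068 with DMF, and 1558, 1322 and 1071 with both agents. The DMF + GSH library was below its Ctrl partner in each pair, with a log2 fold change of -0.29 (adjusted p = 0.0725), beside -0.34 for DMF. The difference between DMF + GSH and DMF was 0.05 (95% interval -0.07 to 0.17, adjusted p = 0.515).

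The other three genes were not called in the same direction with DMF alone. Ly6a, which encodes the surface protein Sca-1 (chr15:74994877-74998031, minus strand), had 2232, 2072 and 1853 in Ctrl, 2016, 2209 and 1744 with DMF, and 1749, 1574 and 1309 with both agents. All DMF + GSH libraries lay below all Ctrl libraries, whereas the DMF libraries were mixed with Ctrl. It had a log2 fold change of -0.42 against Ctrl (SE 0.0613, adjusted p = 0.00791) and -0.37 against DMF (adjusted p = 9.08e-05), beside -0.05 for DMF against Ctrl (95% interval -0.18 to 0.08). Ly6a and Serpinb1a belong to families with similar copies, and the sources used here do not say how the authors' counting treated reads shared between copies.

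Dusp1 and Fos were the other genes of this kind, and both were higher with DMF + GSH. Dusp1, a phosphatase that switches off MAP kinases (chr17:26505590-26562128, minus strand), had 268, 132 and 179 in Ctrl, 274, 126 and 150 with DMF, and 381, 225 and 252 with both agents. It had a log2 fold change of 0.59 against Ctrl (adjusted p = 0.0617) and 0.68 against DMF (adjusted p = 6.05e-05), beside -0.10 for DMF against Ctrl (adjusted p = 0.495). Fos, a subunit of the AP-1 transcription factor (chr12:85473890-85477273, plus strand), had 254, 135 and 156 in Ctrl, 140, 133 and 133 with DMF, and 501, 265 and 214 with both agents. In each pair the DMF + GSH library was the highest of the 3 for both genes, although the groups overlapped, the highest Ctrl value being that of replicate 1. The log2 fold change of Fos was 0.80 against Ctrl (SE 0.160, adjusted p = 0.0937) and 1.17 against DMF, beside -0.37 for DMF against Ctrl (adjusted p = 0.0671).

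**Figure D2:**
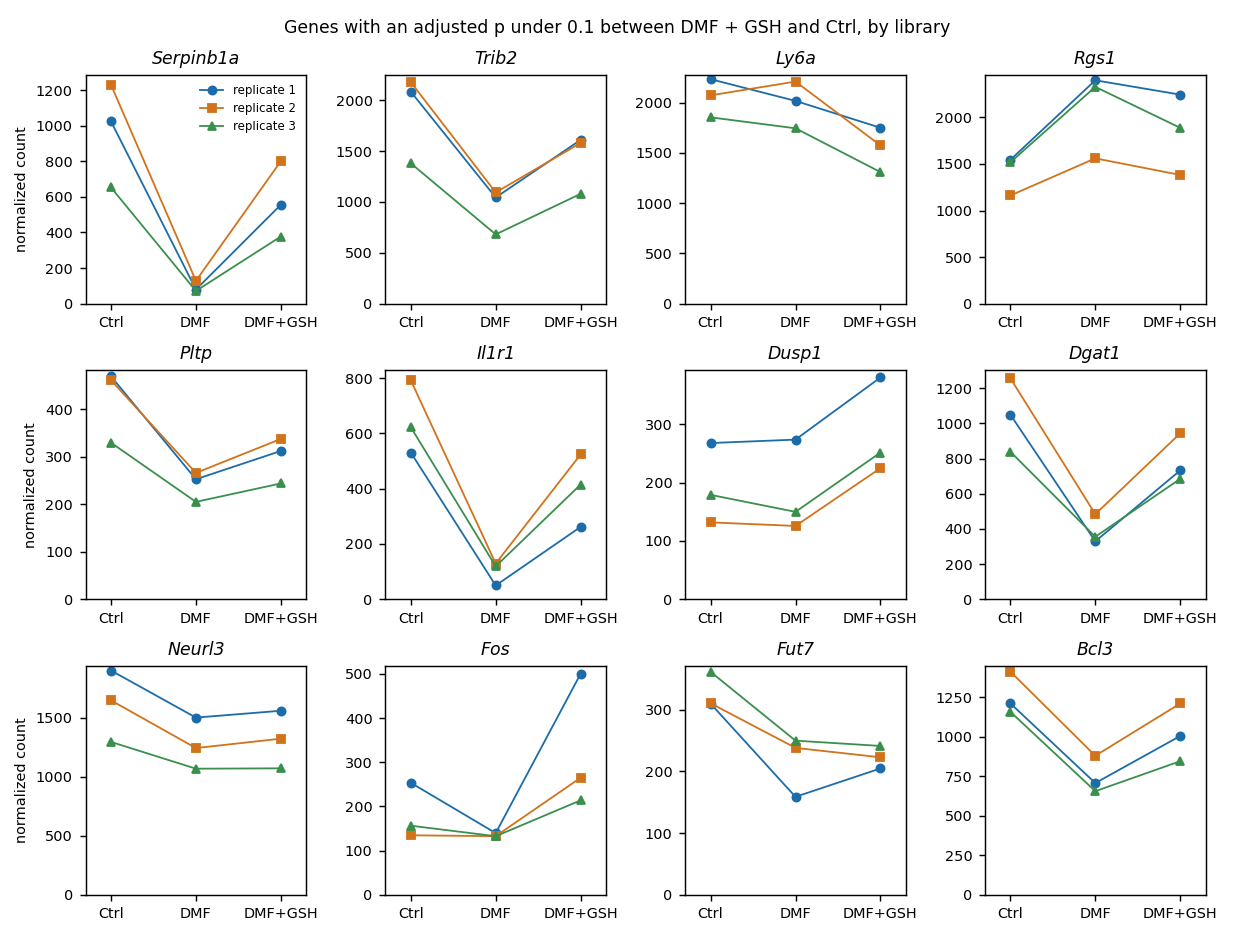
Normalized count (y axis, from 0) of the 12 genes with an adjusted p under 0.1 between DMF + GSH and Ctrl, 1 point per library, with lines joining the libraries of a replicate number. Serpinb1a, Il1r1, Dgat1 and Trib2 are lowest with DMF and lie between with both agents, Fut7 and Neurl3 stay low, Ly6a is lowest with DMF + GSH, and Dusp1 and Fos are highest with DMF + GSH.

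Both Fos and Dusp1 are immediate early genes, transcribed within minutes of a stimulus, and the cAMP response element is a known element of such promoters, so their promoters are shown. The 250 bases before the start of each gene are printed 5′ to 3′ from the RefSeq table (GRCm38.p6), for Dusp1 from chr17:26508473-26508722 on the minus strand and for Fos from chr12:85473640-85473889 on the plus strand. The RefSeq start of Dusp1 lies 53656 bases from the end of the GENCODE gene given above, which includes a longer transcript, and 3 of its 6 GENCODE transcripts start within 50 bases of the RefSeq start. Capitals mark the cAMP response element TGACGTCA, its half-site TGACG and the TATA box TATAAA.
Dusp1: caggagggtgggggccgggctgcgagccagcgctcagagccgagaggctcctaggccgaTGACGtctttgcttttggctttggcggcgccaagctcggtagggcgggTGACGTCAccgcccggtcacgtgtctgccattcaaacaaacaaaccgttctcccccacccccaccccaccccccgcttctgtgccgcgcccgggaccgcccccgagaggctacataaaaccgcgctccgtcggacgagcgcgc
Fos: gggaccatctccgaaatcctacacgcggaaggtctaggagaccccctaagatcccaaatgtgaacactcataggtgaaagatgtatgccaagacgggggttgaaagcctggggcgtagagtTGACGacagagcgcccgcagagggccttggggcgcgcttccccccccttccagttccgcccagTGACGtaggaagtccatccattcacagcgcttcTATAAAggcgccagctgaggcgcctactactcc

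The motifs were searched in the 250 bases before and the 50 bases after the start, on both strands except for the TATA box, and the full element contains the half-site on each strand. Dusp1 had the full element 143 bases before the start and a half-site at 191 bases. Fos had half-sites at 129 and 66 bases and the TATA box at 33 bases before the start. The full element was found in 1.79% of all 32851 promoters of the table and in 3.25% of the 10820 promoters of the genes tested, and the half-site in 20.8% and 32.3%. Of the 12 genes 8 had an entry, and 1 of these held the full element and 4 the half-site (Dusp1, Fos, Il1r1 and Neurl3). The AP-1 site TGANTCA (7.81% of all promoters), the STAT site TTCNNNGAA (8.30%) and the FOXO site TGTTTAC (3.65%) were in 0 of the 8, and the core of the antioxidant response element, TGANNNNGC (41.3%), was in 3. A match is a description of the sequence only.

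The next genes by p, which did not reach an adjusted p of 0.1, were read with the same rule. On the higher side Spp1, the cytokine osteopontin, had 136, 138 and 151 in Ctrl, 466, 630 and 365 with DMF, and 276, 219 and 198 with both agents. Every DMF + GSH value lay between all Ctrl and all DMF values, and the log2 fold change against Ctrl was 0.69 (95% interval 0.39 to 0.99, adjusted p = 0.101), beside 1.74 for DMF. Iigp1, an interferon-induced GTPase, had 197, 227 and 321 in Ctrl and 317, 315 and 369 with DMF + GSH (0.45, adjusted p = 0.148), beside a log2 fold change of 1.55 for DMF. Phlda1 had 69.6, 54.8 and 72.5 in Ctrl and 111, 86.1 and 117 with DMF + GSH, with groups that did not overlap and a log2 fold change of 0.66 (adjusted p = 0.278), beside 0.75 for DMF. Mgst3, a microsomal glutathione transferase, had 87.3, 99.4 and 68.3 in Ctrl, 75.1, 95.9 and 60.0 with DMF, and 123, 123 and 111 with both agents. It was thus higher with DMF + GSH than in every Ctrl and DMF library, with a log2 fold change of 0.50 against Ctrl (adjusted p = 0.537) and of 0.65 against DMF (adjusted p = 0.00189). The log2 fold changes against Ctrl of the others on this side were 0.58 for Fosb, another AP-1 subunit, 0.49 for the monocarboxylate transporter Slc16a13, 0.39 for the kinase Map3k10, 0.39 for Timm8b, a chaperone of mitochondrial import, and 0.32 for the phosphatase subunit Ppp2r3a (adjusted p from 0.394 to 0.558). The Fosb pairs were uneven, at 0.12, 1.13 and 0.50, and its value was 0.31 to 0.81 when libraries or replicate numbers were left out.

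On the lower side Ggt1, the surface enzyme that begins the breakdown of extracellular GSH, had 378, 239 and 85.3 in Ctrl, 42.3, 38.5 and 16.5 with DMF, and 218, 128 and 52.5 with both agents. The level differed several-fold between replicate numbers in every group, yet each DMF + GSH library lay between its partners. This gave a log2 fold change of -0.79 (95% interval -1.14 to -0.44, adjusted p = 0.122), beside -2.68 for DMF. Itgae, the αE integrin CD103, had 3525, 2852 and 2149 in Ctrl, 2978, 2170 and 2043 with DMF, and 2843, 2374 and 1703 with both agents. For Itgae the log2 fold change was -0.30 (adjusted p = 0.122), beside -0.24 for DMF.

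**Figure D3:**
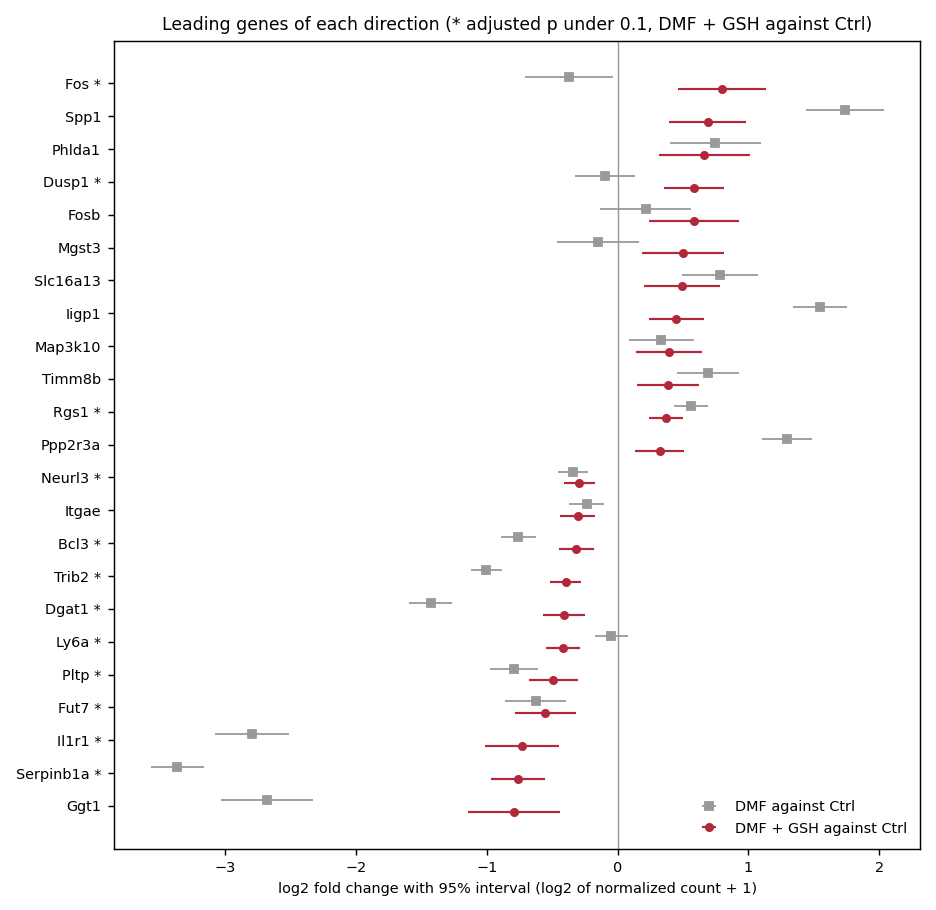
Log2 fold change with its 95% interval (x axis, on the log2(normalized count + 1) scale) for 23 leading genes of both directions, DMF + GSH against Ctrl in red and DMF against Ctrl in grey. The red value is much nearer to 0 than the grey one for Serpinb1a (-0.76 beside -3.36) and Ggt1 (-0.79 beside -2.68), red and grey lie close together for Phlda1 and Fut7, and Ly6a, Dusp1 and Mgst3 have a grey interval that includes 0.

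The largest differences left among the genes that DMF had moved, averaging 50 or more over the 9 libraries, were looked at without regard to p. On the lower side they were Gm10800, Gm10801, Prrt1, Ggt1, Crispld2, Serpinb1a, Il1r1 and Acvrl1. Gm10800 had 2373, 1207 and 813 in Ctrl, 332, 496 and 20.3 with DMF, and 2547, 30.4 and 33.1 with both agents, so that replicate 1 was near its Ctrl partner while replicates 2 and 3 were far below theirs. Gm10801, a gene model next to it on chromosome 2, had the same pattern, and reads shared between such models may have been divided between them. The log2 fold changes of -3.25 and -2.69 (adjusted p = 0.216 and 0.383) average pairs that disagree. Crispld2, a secreted protein, had 195, 220 and 252 in Ctrl and 89.1, 128 and 183 with DMF + GSH without overlap (log2 fold change -0.79, adjusted p = 0.124), beside -1.46 for DMF. Acvrl1, a type I receptor of the TGF-β family, had 90.4, 115 and 76.8 in Ctrl, 45.5, 60.8 and 58.1 with DMF, and 62.7, 62.4 and 43.8 with both agents. Its log2 fold change of -0.73 (adjusted p = 0.278) was close in size to the -0.76 for DMF. Prrt1 had -0.96 (adjusted p = 0.181), beside -1.69.

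On the higher side they were Spp1, Batf3, Epcam, Dgat2, Rsph3a, Slc16a13, Gm561 and Iigp1. Of these, Batf3 and Gm561 reached the minimum mean of this selection only through the DMF libraries. Their means were 11.8 and 36.5 in Ctrl, 129 and 72.1 with DMF, and 18.8 and 50.5 with both agents. Batf3, a transcription factor of the AP-1 family, had 6.24, 14.9 and 14.2 in Ctrl, 148, 93.3 and 145 with DMF, and 12.1, 11.1 and 33.1 with both agents. Replicate 2 with DMF + GSH was below its Ctrl partner and the other two above, and the log2 fold change was 0.54 (95% interval -0.12 to 1.21), or 0.20 to 1.01 with libraries left out, beside 3.40 for DMF. Epcam, an adhesion molecule, had 70.7, 71.5 and 86.7 in Ctrl, 340, 195 and 253 with DMF, and 109, 80.2 and 154 with both agents, with a log2 fold change of 0.53 (adjusted p = 0.581), or 0.34 to 0.72 with libraries left out. Dgat2, the second enzyme able to finish a triglyceride, had 0.53 (adjusted p = 0.870) beside 1.27 for DMF. Its pairs differed in direction (0.48, 1.28 and -0.18), and the value was 0.15 to 0.88 when libraries or replicate numbers were left out.

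Of the 5 genes per direction with the largest responses to DMF, all but Gm10800 and Gm10801 lay nearer to Ctrl than to DMF. Ifng, Cd7 and Havcr2 are given here. Ifng, the defining cytokine of type 1 cells, had 59.2, 139 and 118 in Ctrl, 706, 597 and 921 with DMF, and 94.6, 118 and 82.6 with both agents, all DMF + GSH values lying within the Ctrl range. For Ifng the log2 fold change was -0.03 (95% interval -0.45 to 0.40), beside 2.87 for DMF. Cd7, a T cell surface protein, had 224, 159 and 48.3 in Ctrl, 0 to 41.9 with DMF, and 116, 132 and 33.1 with both agents (log2 fold change -0.58, 95% interval -1.52 to 0.35). Havcr2, the checkpoint receptor TIM-3, had 2.08, 0 and 5.69 in Ctrl, 69.8, 23.1 and 39.7 with DMF, and 6.60, 10.4 and 4.86 with both agents. It reached the minimum mean of 10 only through the DMF libraries, so its values are given without a fold change.

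Gene lists for 22 programs held 519 genes, of which 450 were tested. They are described by the members with an unadjusted p under 0.05 in each direction and by the median log2 fold change, beside 2.11% higher, 3.05% lower and a median of -0.000503 over all genes tested. The lists overlap in part, were written with results of these data known, and contain genes the study had named from these libraries. Of the 62 members with an unadjusted p under 0.05, 9 had pairs that differed in direction, among them Rora, Sod1, Mt1, Id3, Havcr2, Ccl1, Slc2a3 and Itga4. In these 9 and in Xcl1, Slc1a4, Prdx4, Ppp1r15a, Dnaja1, Tnfrsf4, Tnfrsf9, Tnfrsf25, Fosb, Cxcr6, Slc2a1, Pfkp, Itgam and Alcam, 23 in all, the mean of the pairs moved by more than 1.5 times when 1 replicate number was left out.

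The type 17 list, the genes tied to IL-17 production, had 19 tested members, of which 0 were higher and 6 lower. Among the 19 were 12 of the 496 genes that fell with DMF, and 102 of those 496 were lower at the same cut. Its median log2 fold change was -0.17 (-0.30, -0.26 and -0.02 in replicates 1 to 3), beside -1.34 for DMF. The cytokines themselves were close to Ctrl. Il17a had 269, 504 and 418 in Ctrl, 31.7, 146 and 136 with DMF, and 276, 398 and 429 with both agents, with a log2 fold change of -0.09 (95% interval -0.53 to 0.35). Il17f had 2619, 3889 and 4058 in Ctrl, 722, 1791 and 1763 with DMF, and 2694, 3832 and 4550 with both agents (0.06, 95% interval -0.16 to 0.28). For both cytokines every DMF + GSH library was above every DMF library, and the pairs with Ctrl differed in direction. Il21 had a log2 fold change of -0.15 (95% interval -0.42 to 0.12), beside -1.34 for DMF.

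The 6 lower members of the type 17 list at an unadjusted p under 0.05 included no cytokine. They were the receptors Il1r1 and Ltb4r1, the transcription factors Rora and Ahr, the integrin Itgae and the inhibitor Serpinb1a, of which 2 (Serpinb1a and Il1r1) reached an adjusted p of 0.1. Ltb4r1, a receptor for leukotriene B4, had 37.4, 36.2 and 49.8 in Ctrl, 10.6, 5.99 and 6.77 with DMF, and 17.6, 26.0 and 27.2 with both agents. The 3 groups were separate and DMF + GSH lay in the middle, with a log2 fold change of -0.79 (adjusted p = 0.799). Rora had -0.27 (adjusted p = 0.827), beside -0.88 for DMF, and Ahr, the aryl hydrocarbon receptor, -0.20 (adjusted p = 0.794), beside -0.17. The 95% intervals of Il17a and Il21 include these values for Rora and Ahr, and that of Il17f does not. A difference between the cytokines and the 6 members was not tested. Ccr6, the homing receptor of type 17 cells, had 27.0, 42.7 and 45.5 in Ctrl and 24.2, 26.0 and 22.4 with DMF + GSH, with an unadjusted p of 0.0600 and a 95% interval of -1.26 to 0.03. The count of lower members was 8 without Ctrl replicate 3 (beside 3.38% of all genes lower in that fit), and 5, 6 and 8 without replicate number 1, 2 and 3 (beside 3.71%, 2.19% and 2.71%).

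The FOXO1, naive and memory list had 26 members, all tested, of which 0 were higher and 9 lower. In 17 of the 26 (65.4%) the DMF + GSH library was below Ctrl in all 3 pairs, beside 14.2% of all genes tested and 48.8% of the 496 genes that fell with DMF against the same Ctrl libraries. The list was chosen with these results known, and 16 of its members were among those 496, so the share is a description only. The median log2 fold change was small and alike in the pairs, -0.11 (-0.10, -0.12 and -0.13), beside -0.84 for DMF. None of the 9 reached an adjusted p of 0.1. Il7r, the IL-7 receptor chain, had -0.26 and Ccr7, the chemokine receptor for lymph node entry, -0.14, beside -1.05 and -0.54 for DMF. The receptor chains for IL-6 were in the same group, with -0.32 for Il6ra and -0.21 for Il6st, beside -0.73 and -0.44.

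Cxcr5, a chemokine receptor of B cell follicles, had 83.1, 81.7 and 83.9 in Ctrl, 43.4, 55.6 and 61.0 with DMF, and 38.5, 54.2 and 68.1 with both agents. Its log2 fold change of -0.66 (adjusted p = 0.394) stood beside -0.64 for DMF, and the difference between DMF + GSH and DMF had a 95% interval of -0.40 to 0.37. Tnfrsf25, the death receptor DR3, had -0.50 (adjusted p = 0.383), beside -1.94. Satb1, a chromatin organizer, had -0.18 and Id3, an inhibitor of E proteins, -0.20. The count of 9 lower members was 7 without Ctrl replicate 3 (beside 3.38% of all genes), 4 without replicate 3 of all groups (beside 2.71% of all genes) and 3 with the batch in place of the replicate number (beside 1.13%).

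**Figure D4:**
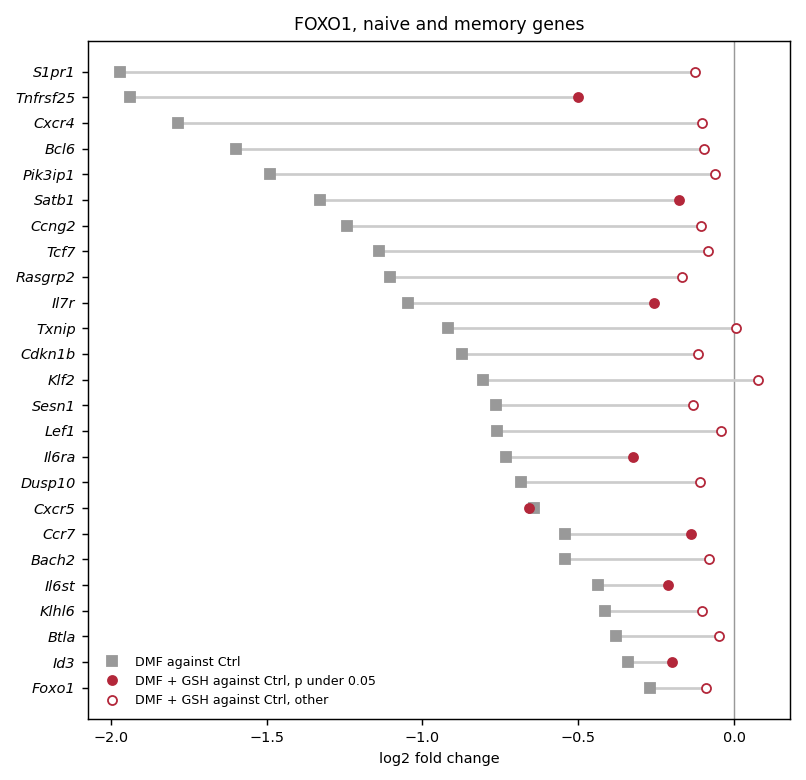
Log2 fold change (x axis) of 25 genes of the FOXO1, naive and memory list, DMF against Ctrl as grey squares and DMF + GSH against Ctrl as red circles, filled where the unadjusted p is under 0.05. All squares lie below 0, and the circles have a median of -0.11 over the whole list, from Cxcr5 at -0.66 and Tnfrsf25 at -0.50 to Klf2 at 0.08, with Klf2 and Txnip above 0.

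The immediate early and T cell receptor response list had 27 members tested, of which 5 were higher and 1 lower. Beside Fos, Dusp1 and Fosb, the last with its uneven pairs, the higher ones were Dusp6, a phosphatase for ERK, with a log2 fold change of 0.28 (adjusted p = 0.677) and the activation marker Cd69 with 0.19 (adjusted p = 0.794). Dusp6 had 324, 397 and 267 in Ctrl, 375, 371 and 270 with DMF, and 405, 431 and 351 with both agents, and like Fos and Dusp1 it was highest with DMF + GSH in each replicate number. Fosl2 was the lower member, with -0.17. By sign alone 20 members were higher and 7 lower. Egr1 (0.04), Jun (0.02), Junb (-0.01) and Nr4a1 (-0.09) lay close to Ctrl, while Jund had 0.22 and Nr4a2 0.13. The 5 higher members thus do not stand for the whole list. The list's median was 0.07 (0.12, 0.02 and 0.03 in the replicates), beside 0.06 for DMF. Zfp36, which encodes an mRNA-destabilizing protein also transcribed early after stimulation, is not on the list and was picked after its values were seen. It had 1702, 1271 and 984 in Ctrl, 801 to 1083 with DMF, and 2082, 1443 and 1228 with both agents, with a log2 fold change of 0.26 (adjusted p = 0.373).

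Glycolysis genes, 22 tested, had 0 higher and 6 lower members, with a median log2 fold change of -0.08 (-0.04, -0.16 and -0.02). Slc2a3, a glucose transporter, had 674, 1446 and 621 in Ctrl and 682, 628 and 479 with DMF + GSH, so that Ctrl replicate 2 stood far above the other Ctrl values (-0.52, adjusted p = 0.386). The other lower members were the transporter Slc2a1 and the enzymes Gpi1, Pfkp, Eno1 and Pkm, with log2 fold changes from -0.17 to -0.11. Without replicate 2 of all groups 0 members were lower at an unadjusted p under 0.05 by limma (beside 2.19% of all genes). The mean of the pairs was then -0.18 for Slc2a3, -0.06 for Slc2a1 and -0.08 for Pfkp, which had thus shrunk most. It was -0.10 for Pkm, -0.10 for Eno1 and -0.09 for Gpi1, so their values moved less than their calls.

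The TGF-β response list, 22 tested, also had 0 higher and 6 lower members, with a median of -0.05. Gpr15, a gut homing receptor induced by TGF-β, had 418, 364 and 383 in Ctrl, 254, 282 and 291 with DMF, and 306, 261 and 346 with both agents without overlap with Ctrl (log2 fold change -0.36, adjusted p = 0.394). Nav2 had -0.31, beside -3.06 for DMF, and the transcription factor Runx3 -0.12. Itgae and Ldlrad4, with -0.21, were also lower. Without replicate 2 of all groups 2 members were lower, beside 2.19% of all genes.

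Among integrins and adhesion molecules, 21 tested, 1 was higher (Alcam, 0.19) and 5 were lower. Itga4 had a log2 fold change of -0.21 and Itga3 of -0.26, beside -1.06 and -1.24 for DMF. Itgam, the αM integrin, had 48.8, 44.6 and 39.8 in Ctrl, 8.46, 5.99 and 1.94 with DMF, and 42.9, 30.4 and 11.7 with both agents (-0.80, adjusted p = 0.831). The pairs were -0.18, -0.54 and -1.69, and without replicate 3 their mean was -0.36. Itgam is also a myeloid gene, and the part of the myeloid transcripts of Ctrl replicate 3 in its difference was not tested. The count of lower members was 2 without Ctrl replicate 3, beside 3.38% of all genes.

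Chemokines and their receptors, 17 tested, had 2 higher and 4 lower members. Ccr8, a receptor of skin homing and regulatory cells, went against its response to DMF. It had 99.8, 111 and 152 in Ctrl, 206, 223 and 308 with DMF, and 64.9, 75.0 and 122 with both agents, the lowest of the 3 groups in each replicate number. Its log2 fold change was -0.50 against Ctrl (adjusted p = 0.278), beside 1.02 for DMF, and -1.51 against DMF (adjusted p = 4.34e-08). Ccl1, a ligand of CCR8, had 9.35, 3.72 and 8.53 in Ctrl and 7.70, 31.2 and 10.7 with DMF + GSH, with 1 high library (0.94, adjusted p = 0.925). Cxcr6 had -0.19, beside -1.11 for DMF.

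In the list for IL-2 and STAT5, 25 tested, 1 member was higher and 4 were lower, with a median of -0.07 beside 0.41 for DMF. Lif, a cytokine of the IL-6 family, had 43.7, 153 and 146 in Ctrl, 28.6, 71.1 and 78.4 with DMF, and 36.3, 92.8 and 84.6 with both agents (-0.59, adjusted p = 0.442). Osm, of the same family, had -0.41 and Socs3, the inhibitor of IL-6 signalling, -0.20 beside -0.98 for DMF. Tnfrsf4, the costimulatory receptor OX40, had -0.26 beside 0.53 for DMF, again with opposite signs, whereas Tnfrsf9, 4-1BB, had 0.18 beside 0.72.

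The cytotoxic list, 19 tested, had 1 higher member (Xcl1, 0.15) and 1 lower (Gzmc, -0.84, which averaged 8.32 over the Ctrl and DMF + GSH libraries and reached the minimum of 10 only through the DMF libraries), with a median log2 fold change of -0.02 beside 0.94 for DMF. Gzmb, the serine protease of cytotoxic granules, had 1184, 1529 and 2587 in Ctrl, 6865, 7309 and 7205 with DMF, and 1592, 1258 and 1894 with both agents. All DMF + GSH values were inside the Ctrl range and far below DMF, with a log2 fold change of -0.10 (95% interval -0.38 to 0.17). Prf1, the pore-forming perforin, had 0.03 (95% interval -0.10 to 0.16) and Tbx21, which encodes T-BET, 0.15 (95% interval -0.12 to 0.41), beside 0.81 and 0.98 for DMF. For Gzmb and Tbx21 replicate 1 was above its Ctrl partner and replicate 3 below. Gzmc, a granzyme of low level here, had 10.4, 13.0 and 8.53 in Ctrl, 56.1, 24.0 and 32.9 with DMF, and 9.90, 5.20 and 2.92 with both agents.

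The stress programs had medians near 0. The share of members higher with DMF + GSH in all 3 pairs was 36.8% for heat shock genes, 33.3% for the thioredoxin system, 27.6% for NRF2 targets, 18.2% for glutathione genes, 17.1% for the ATF4 list and 16.7% for metallothionein and iron genes, beside 11.7% of all genes tested and 28.0% of the 293 genes that rose with DMF. The NRF2 targets, 29 tested, had 0 higher and 0 lower members and a median log2 fold change of 0.05, beside 0.21 for DMF. Srxn1, sulfiredoxin, had 0.22 beside 1.63, and Txnrd1, thioredoxin reductase, 0.07 beside 0.84. The ATF4 and amino acid response, 35 tested, had 2 higher members (Slc1a4 with 0.31 and Ppp1r15a with 0.30) and a median of 0.01, beside 0.54 for DMF. The serine and asparagine enzymes Phgdh and Asns had 0.02 and -0.06, beside 0.66 and 0.82. Heat shock genes, 19 tested, had 1 higher member (Dnaja1, 0.15) and a median of 0.04 beside 0.43, and among metallothionein and iron genes, 18 tested, Mt1 was the single higher member with 0.31 beside 1.45, from pairs of 0.42, -0.21 and 0.71.

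The thioredoxin and peroxiredoxin system, 21 tested, had 3 higher and 0 lower members and a median of 0.06, beside 0.33. Prdx4, a peroxiredoxin of the endoplasmic reticulum, had 443, 430 and 367 in Ctrl, 595, 509 and 525 with DMF, and 503, 465 and 504 with both agents. All its DMF + GSH values were above all Ctrl values (0.25, adjusted p = 0.705), and the superoxide dismutases Sod1 and Sod2 had 0.14 and 0.15, beside 0.33 and 0.66 for DMF. Genes of glutathione synthesis and use, 33 tested, had 3 higher members (Ggct with 0.31, Slc1a4 and Mgst3) and 1 lower (Ggt1). The subunits of the enzyme that limits GSH synthesis, Gclc and Gclm, had -0.05 and 0.06.

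The remaining lists gave few members. Checkpoint and costimulatory receptors, 20 tested, had 3 higher and 1 lower. Of the higher ones, Tigit had 0.20 beside 1.14 for DMF and Tnfrsf9 0.18, while Havcr2, at a mean of 4.94 over the Ctrl and DMF + GSH libraries, is no support for the count. Serpins and proteases, 19 tested, had 3 lower (among them Serpinb1a and the cathepsin Ctss with -0.26 beside -0.36 for DMF). Sterol and fatty acid synthesis, 32 tested, had 1 lower (the elongase Elovl6, -0.25 beside -0.33), the immune lectins, 9 tested, 1 lower (Klrc2, -0.35), and the interferon response, 26 tested, 1 higher (Iigp1). DNA replication and mitosis, 36 tested, and the 7 mitochondrially encoded genes had 0 in either direction by limma at an unadjusted p under 0.05.

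**Figure D5:**
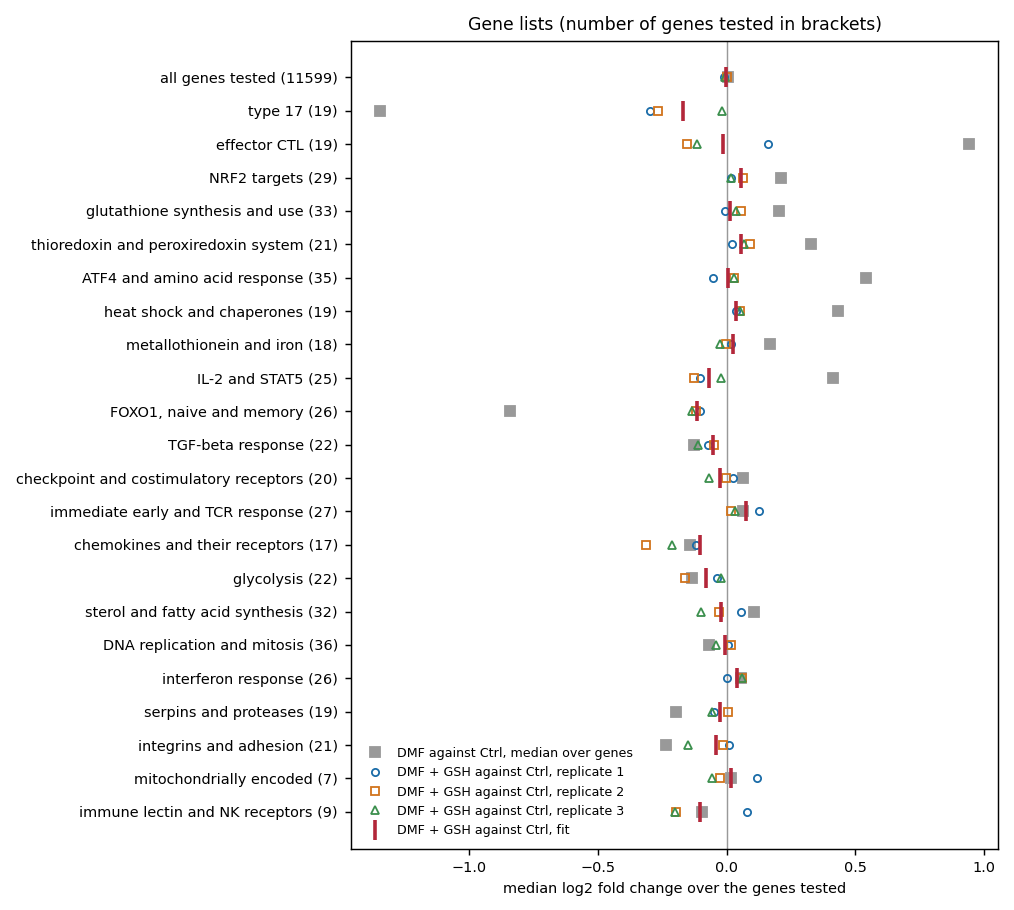
Median log2 fold change (x axis) over the tested genes of each list, DMF against Ctrl as grey squares, DMF + GSH against Ctrl in the fit as red bars and in each replicate number as open symbols. The red bars stay between -0.17 (type 17) and 0.07 (immediate early), while the squares reach from -1.34 (type 17) to 0.94 (effector CTL).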

How the data were processed

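The table holds 9 Tc17 libraries, which the labels place in 3 groups of 3 (Ctrl, DMF, DMF + GSH). Per the methods, poly(A) libraries were read as single reads, aligned by the authors to GRCm38 with STAR (2.4.0b) and counted per gene with featureCounts, and the authors modelled the preparation batch in DESeq2. The deposited values are counts divided by a factor per library (unit signal, that is, normalized counts). Dividing by each library's step gave whole reads for 100% of values (tolerance 0.01), whose sums are the depth. The authors' own fold change, statistic, p-value and adjusted p for another comparison were not used.

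Normalized counts were taken as log2(value + 1) and fitted with limma-trend (limma 3.58.1, R 4.3.3) over all 9 libraries, with group and replicate number in the model, for genes with a mean of at least 10. Adjusted p-values are Benjamini-Hochberg over all 11599 genes. The design had foreseen a count test only for raw counts, and edgeR 4.0.16 and DESeq2 1.42.0 were run on the recovered reads as alternatives, where they called 18 and 19 genes at an adjusted p under 0.1. Deviations from the group means correlated at 0.447 to 0.578 between libraries of the same number (9 pairs) and at -0.471 to -0.0621 between those of another number (18 pairs). Deviations cancel within a group, which pushes the second range below 0, so the pairing by number is read from the first range only. The scripts were tested on simulated data. Other alternatives were the pseudocount, the filter, the scaling and leaving out libraries.

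Genes were named if past an adjusted p of 0.1, filled up to 12 per direction by p (mean of at least 50, same direction in 3 pairs, change of at least 0.3), as the 8 largest remaining and 5 largest changes per direction among genes moved by DMF, as list members with an unadjusted p under 0.05, or as genes the study names. The members and lists were chosen with earlier results of these data known. List members named beside these illustrate their list. Results for some single genes are not reported here. Positions come from GENCODE vM21 and promoters from RefSeq. Figures were drawn with Matplotlib 3.10.9.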

Additional observations from a re-analysis of the deposited data

How the results depend on the processing

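The number of genes past the stricter threshold (1) was 7 without a minimum mean and 0 with the preparation batch in place of the replicate block, in limma and in DESeq2, and 0 with no block and no batch. The number with an adjusted p under 0.1 (12) was 45 without a minimum, 22 with only the 6 libraries, 18 with edgeR and 19 with DESeq2 with the replicate block, and 0 in each fit without the replicate block. All 12 genes were among those called with another pseudocount, minimum, scaling, with edgeR or with DESeq2 under the replicate block, and 10 of them with robust variance moderation. Leaving out libraries or replicate numbers gave 0 to 5, 0 to 27 and, for the intervals within 0.75 (87.5%), 82.1% to 87.8%, and without a minimum that share was 37.6%. At an adjusted p under 0.1 Serpinb1a was called in 20 of 25 alternatives, with log2 fold changes of -0.83 to -0.66, and Ly6a in 18 of 25 (-0.47 to -0.37). The stricter call of Serpinb1a was lost in every fit without the replicate block. It was also lost without a Ctrl library, without DMF + GSH replicate 2 or 3, and without a whole replicate number. Without a called difference in any of them, the sign turned for Ifng with quantile normalization (0.000189) and on leaving out libraries for Ifng (-0.37 to 0.24), Il17a (-0.38 to 0.13), Il17f (-0.044 to 0.18), Il21 (-0.31 to 0.030), Gzmb (-0.37 to 0.14), Prf1 (-0.046 to 0.12) and Tbx21 (-0.10 to 0.41). The cause was not tested. The counts of list members without libraries were added after seeing the data. Of the 1450 genes whose 95% interval reached beyond 0.75 on the log2 scale, 34 averaged 100 normalized counts or more.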

Other observations

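A few genes outside the program lists were picked after their values were seen, because their means were lower with DMF + GSH than in both other groups. Ly6c2, a relative of Ly6a, had 109, 64.1 and 55.5 in Ctrl, 96.3, 96.7 and 54.2 with DMF, and 49.5, 35.6 and 35.0 with both agents, a log2 fold change of -0.87 against Ctrl (adjusted p = 0.148) beside 0.12 for DMF. Axl, a receptor tyrosine kinase, had 143, 163 and 230 in Ctrl, 234, 223 and 314 with DMF, and 142, 96.5 and 141 with both agents, a log2 fold change of -0.49 against Ctrl (adjusted p = 0.377) beside 0.53 for DMF, with replicate 1 near its partner. Foxp3, listed among the CD4 T cell markers, had 796, 559 and 913 in Ctrl, 2456, 1035 and 2325 with DMF, and 578, 463 and 935 with both agents, a log2 fold change of -0.23 against Ctrl (95% interval -0.48 to 0.02) beside 1.29 for DMF.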
